A study of Mus musculus with 6 samples.

Results

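The genes described here make the machinery that copies DNA in S phase. They are 36 genes chosen by symbol for their known roles, from helicase loading to chromatin assembly, and all 36 were found among the 16701 genes of the authors' deposited table. That table holds 1 comparison of polyadenylated RNA from mammary gland luminal epithelial cells, 3 libraries from Ocln knockout mice (Ocln-/-) against 3 from wild-type control mice, both at 7 weeks of age. The series is about occludin, the tight junction protein that Ocln encodes, its binding to FIP5, and the mitotic spindle. Strain background, the making of the Ocln allele, the purification of the luminal cells and the number of mice behind a library are not stated in the labels. The p-values therefore set the difference between genotypes against the spread of these libraries within a genotype, which may be partly technical variation. Ocln itself was lower in the knockout, with a log2 fold change (knockout over control) of -1.15 ± 0.16 SE (adjusted p = 4.36e-09) in the authors' deposited table, which does not show the exons the remaining reads came from.

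Before S phase, the origin recognition complex with Cdc6 and Cdt1 loads the MCM helicase, a ring of MCM subunits, onto DNA. At the onset of S phase Cdc45 and the GINS complex join the ring and switch the helicase on. Primase and polymerase alpha start each strand, polymerases delta and epsilon extend it on the PCNA clamp that the RFC loader places, and Fen1 and Lig1 join the lagging-strand pieces. Transcription of many of these genes is driven by E2F factors and peaks near the entry into S phase. In the mammary gland of young mice, luminal cells divide as the ducts grow through the fat pad.

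None of these replication genes passed the test between genotypes. Of the 36 members in the authors' deposited table, 0 had a DESeq2 adjusted p under 0.05, where 1.08 percent of all listed genes did, and the smallest adjusted p of a member was 0.488. At an unadjusted p under 0.05 there was 1 member, Gins2, against 9.07 percent of all listed genes, and it was lower in the knockout, as were 3.83 percent of all listed genes. The authors' own calls of Up or Down in the deposited table took in 2.79 percent of listed genes and 0 members. The rule of these calls is not stated, and they do not follow the adjusted p. The point estimates nevertheless leaned to the negative side. A negative log2 fold change, knockout over control, was listed for 27 members and a positive one for 9, so 75 percent were negative where 51.2 percent of all listed genes were. The median log2 fold change of the members was -0.21, which is 86.6 percent of the control level, beside -0.01 for all listed genes. A mean weighted by 1/SE squared, which gives the precise members more weight, was nearer to 0, at -0.10. In whole-population RNA a smaller share of cells in S phase and less RNA per such cell cannot be told apart.

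The estimates were precise enough to bound most members. Intervals of 95 percent, taken as 1.96 SE (the authors' standard error) on either side and not adjusted for the number of genes, held 0 for 35 of 36 members. For 27 members the whole interval lay inside a 2-fold change in either direction. For 8 members it reached a 2-fold fall, and for 1, E2f1, a 2-fold rise. In size, 31 members had an absolute log2 fold change of at most 0.5 and 5 a larger one, while 17.1 percent of all listed genes had a larger one.

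**Figure D1:**
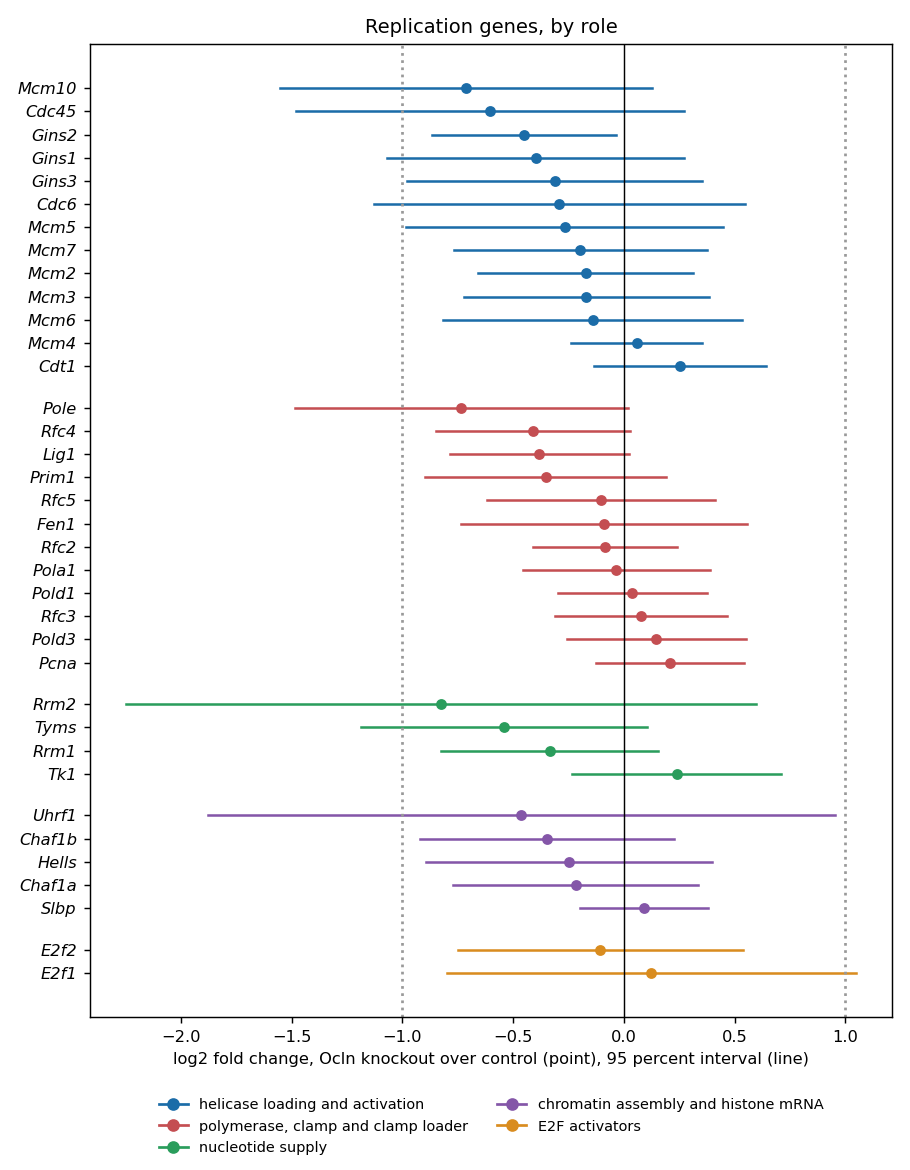
Log2 fold change of each of the 36 members in the authors' deposited table (points) with its 95 percent interval (lines, 1.96 SE on either side), Ocln knockout over control on the horizontal axis, grouped and coloured by role. Dotted lines mark a 2-fold change, and of the 36 intervals only that of Gins2 does not cross 0.

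The promoters were searched for the letters that E2F factors are known to bind, since this is the control most of these genes are known to share. The search took TTTCCCGC, TTTGGCGC, TTTCGCGC and TTTGCCGC on both strands, in windows from 250 bases before to 50 bases after each start (RefSeq, GRCm38.p6). Of the 31 members with an entry, 15 held at least 1 match, or 48.4 percent, against 2.61 percent of all 27025 genes with a promoter entry and 4.54 percent of the 11356 of them that the authors listed. Base composition was not taken into account. In the further lists described below, a match stood in 6 of 15 E2F, pocket protein and G1/S cyclin genes (40 percent). It stood in 11 of 41 other replication genes (26.8 percent) and 2 of 15 checkpoint and fork repair genes (13.3 percent). It stood in 0 of 10 mitochondrial replication genes and 1 of 22 G2/M genes. Matches stood in 7 of 10 helicase genes, 5 of 10 polymerase and clamp genes, 2 of 5 chromatin genes, E2f2 and 0 of 4 nucleotide supply genes. Of 21 matches in all, 12 began before the start site, in 9 members. Mcm4, Gins1, Gins2, Pole and Rfc2 had no entry. Genes of the G2 phase and mitosis are known to carry the letters of the CHR element, TTTGAA and TTCGAA, searched on both strands. These letters stood in 7 of the 31 members (22.6 percent) and in 18 of 22 G2/M genes (81.8 percent). The share was 21.7 percent of all genes with an entry and 17.0 percent of those that the authors listed.

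The windows below are those of the members with an E2F match and the lowest log2 fold changes, Uhrf1, Lig1, Gins3 and Cdc6, followed by Mcm5 and Mcm6, which were added after their values were seen because matches on both strands share bases there. Each runs 5′ to 3′ on the strand of its gene, with the E2F letters in capitals. They lie on GRCm38.p6 at chr17:56304088-56304175 (Uhrf1, plus strand), chr7:13278841-13278870 (Lig1, plus strand, 30 bases past the start), chr8:95633478-95633558 (Gins3, plus strand), chr11:98907973-98908060 (Cdc6, plus strand), chr8:75109316-75109407 (Mcm5, plus strand) and chr1:128359706-128359855 (Mcm6, minus strand).
Uhrf1: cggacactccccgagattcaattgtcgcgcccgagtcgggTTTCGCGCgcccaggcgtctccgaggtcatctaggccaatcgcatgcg
Lig1: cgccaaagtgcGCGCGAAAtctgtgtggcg
Gins3: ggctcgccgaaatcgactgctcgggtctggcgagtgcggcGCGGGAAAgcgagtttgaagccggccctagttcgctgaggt
Cdc6: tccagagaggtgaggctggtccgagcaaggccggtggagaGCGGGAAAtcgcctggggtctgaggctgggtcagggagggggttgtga
Mcm5: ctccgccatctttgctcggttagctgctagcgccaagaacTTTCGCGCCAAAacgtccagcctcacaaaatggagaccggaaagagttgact
Mcm6: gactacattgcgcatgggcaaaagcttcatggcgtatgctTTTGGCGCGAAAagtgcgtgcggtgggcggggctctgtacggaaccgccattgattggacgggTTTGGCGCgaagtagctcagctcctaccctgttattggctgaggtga

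In Mcm5 a match on each strand overlaps in 1 run of capitals, and Mcm6 holds such a pair and a further match nearer to the start. The 15 members with a match had a median log2 fold change of -0.17, with 11 negative, and the 16 without had -0.28, with 12 negative, a description with no test. Only exact letters in these windows were searched, so a member without a match is not thereby shown to lack E2F control. Across all listed genes the medians were -0.02 for the 515 with a match and -0.01 for the 10841 without.

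**Figure D2:**
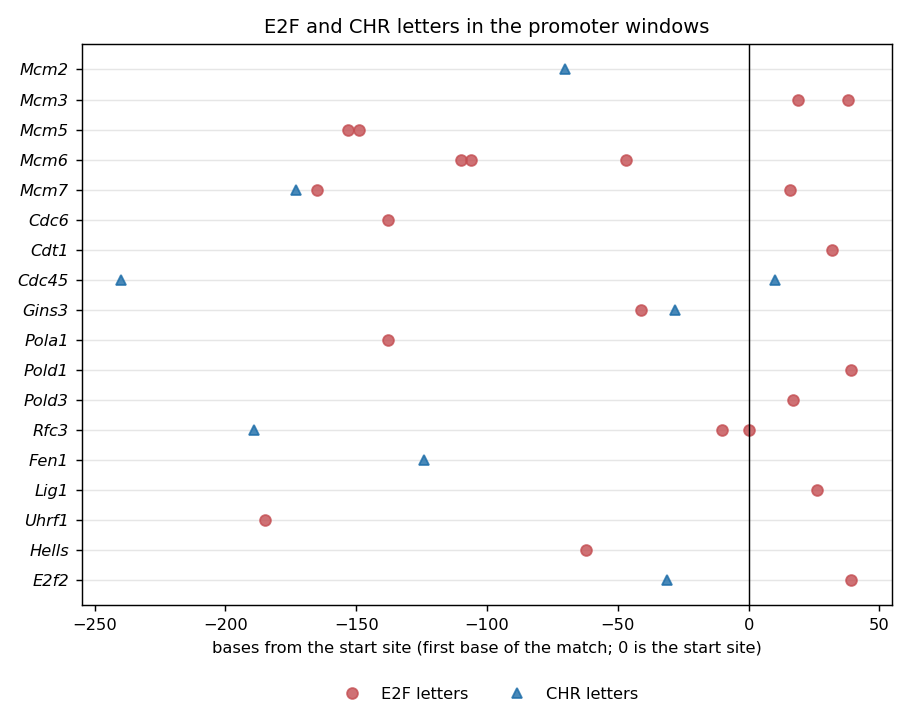
Position of each E2F match (circles) and CHR match (triangles) in the promoter window of each member that holds any, in bases from the start site on the horizontal axis, where 0 is the start site. Of the 21 E2F matches, 12 begin before the start site, and the overlapping pairs of Mcm5 and Mcm6 stand side by side.

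Helicase loading and activation genes had 11 negative values of 13 and a median log2 fold change of -0.27. The subunits of the MCM ring, Mcm2 to Mcm7, spanned only -0.27 to 0.06 in the authors' deposited table, with 5 of 6 negative. Mcm6 had the highest mean level of all members, 2455 normalized counts averaged over all libraries, and a log2 fold change of -0.14 ± 0.34 SE in the authors' deposited table (unadjusted p = 0.683, adjusted p = 0.965). Mcm4, the next in level in this role, stood at 1174 normalized counts and 0.06 ± 0.15 (unadjusted p = 0.702, adjusted p = 0.967) in the authors' deposited table, with an interval of 84.8 to 127.7 percent of the control level. The other ring subunits were listed at -0.27 ± 0.36 for Mcm5, -0.20 ± 0.29 for Mcm7, -0.17 ± 0.25 for Mcm2 and -0.17 ± 0.28 for Mcm3 in the authors' deposited table. Every ring subunit thus had an interval that held 0 and stopped short of a 2-fold change.

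The factors that load and start the ring differed more among themselves. Cdt1, which brings the ring to the origin, had the highest value of all members, 0.26 ± 0.20 SE at a mean level of 308 (unadjusted p = 0.196, adjusted p = 0.794) in the authors' deposited table. Its partner in loading, Cdc6, had a mean level of only 53.5 and was listed at -0.29 ± 0.43 in the authors' deposited table. Mcm10, which helps the loaded helicase to start, had the lowest value of the role, -0.71 ± 0.43 at a mean level of 77.0 (unadjusted p = 0.0972, adjusted p = 0.667) in the authors' deposited table. Cdc45, the helicase cofactor, had a mean level of 88.5 and followed at -0.61 ± 0.45 in the authors' deposited table. No difference between a pair of members was tested, because the table gives no covariance of their estimates.

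The 3 member subunits of GINS, the complex that joins Cdc45 on the helicase, were negative, as was the fourth subunit, Gins4, which is no member (-0.21 ± 0.17 SE in the authors' deposited table). Gins2 had the smallest p of all members, with a log2 fold change of -0.45 ± 0.21 SE at a mean level of 365 normalized counts in the authors' deposited table (unadjusted p = 0.0333, adjusted p = 0.488). Expressed against control, the estimate was 73.2 percent, with an interval of 54.9 to 97.6 percent. Gins1 (mean level 75.2) stood at -0.40 ± 0.34 and Gins3 (mean level 47.4) at -0.31 ± 0.34 in the authors' deposited table. Gins2 occupies chr8:120578633-120589304 of GRCm38 (minus strand). In its annotation 2758 of 4097 exonic bases, 67.3 percent, are also exonic in Gse1 on the opposite strand (GENCODE M21). Gse1 was listed at a mean level of 1750 with -0.15 ± 0.25 in the authors' deposited table. No label says whether reads were counted by strand, so reads of these genes may not be separable and the value of Gins2 is uncertain.

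Polymerase, clamp and clamp loader genes had a median log2 fold change of -0.09, with 8 of 12 negative. Pole, the catalytic subunit of the leading-strand polymerase epsilon, had the lowest value of the role, -0.73 ± 0.38 SE at a mean level of 165 (unadjusted p = 0.056, adjusted p = 0.568) in the authors' deposited table, or 60.2 percent of the control level with an interval of 35.7 to 101.3 percent. The member subunits of the lagging-strand polymerase delta had small positive values. Pold3 was listed at 0.15 ± 0.21 (unadjusted p = 0.476, adjusted p = 0.932) and a mean level of 1370, the highest of the role, and the catalytic Pold1 at 0.04 ± 0.17, in the authors' deposited table. The remaining delta subunits, which are no members, were negative there, Pold2 at -0.05 ± 0.23 and Pold4 at -0.27 ± 0.21 in the authors' deposited table. Pola1, the catalytic subunit of polymerase alpha, stood at -0.03 ± 0.22 and Prim1, the primase that makes the RNA primer, at -0.35 ± 0.28 in the authors' deposited table.

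Pcna, the clamp, had the highest value of this role, 0.21 ± 0.17 SE at a mean level of 982 (unadjusted p = 0.224, adjusted p = 0.815) in the authors' deposited table. The processed copy Pcna-ps2 was itself listed at a mean level of 1142 with 0.02 ± 0.21 in the authors' deposited table, so reads of the clamp gene may be split between both entries and either value is uncertain. Of the clamp loader subunits, Rfc4 was lowest at -0.41 ± 0.22 (unadjusted p = 0.0663), and Rfc5 stood at -0.10 ± 0.26, Rfc2 at -0.08 ± 0.17 and Rfc3 at 0.08 ± 0.20 in the authors' deposited table. Lig1, the ligase that seals lagging-strand fragments, was listed at -0.38 ± 0.21 (unadjusted p = 0.0645, adjusted p = 0.599) in the authors' deposited table, or 76.7 percent of the control level. Fen1, the flap nuclease that acts just before the ligase, had a mean level of only 53.0 and, in the authors' deposited table, a value of -0.09 ± 0.33. Of the exonic bases of Fen1, 84.2 percent are shared with Gm10143 and Tmem258 on the opposite strand, and its level and value are uncertain.

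Nucleotide supply genes had the lowest median of the roles, -0.44 over only 4 genes, 3 of them negative. Rrm2, the small subunit of ribonucleotide reductase that is made in S phase, had the lowest log2 fold change of all members and the largest SE, -0.82 ± 0.73 SE at a mean level of 293 (unadjusted p = 0.256, adjusted p = 0.843) in the authors' deposited table. Its interval ran from 21.1 to 151.5 percent of the control level. Rrm1, the large subunit of the same enzyme, was listed at -0.34 ± 0.25 and a mean level of 1184 (unadjusted p = 0.181, adjusted p = 0.781) in the authors' deposited table. Tyms, which makes thymidylate, stood at -0.54 ± 0.33 (unadjusted p = 0.102) in the authors' deposited table, and Tk1, the salvage kinase for thymidine, at 0.24 ± 0.24 and a mean level of 394 (unadjusted p = 0.324, adjusted p = 0.875). The synthesis and salvage routes to thymidylate thus had point estimates of opposite sign, with intervals that overlap.

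Chromatin assembly and histone mRNA genes had a median of -0.25, with 4 of 5 negative. Uhrf1, which reads hemimethylated DNA behind the fork, was lowest at -0.46 ± 0.72 SE (unadjusted p = 0.521, adjusted p = 0.942) in the authors' deposited table. Its mean level was 305. Hells, a chromatin remodeller, stood at -0.25 ± 0.33 (mean level 330, unadjusted p = 0.449, adjusted p = 0.925) and the CAF-1 subunits, which place new histones, at -0.35 ± 0.29 for Chaf1b and -0.22 ± 0.28 for Chaf1a in the authors' deposited table. Of the exonic bases of Chaf1a, 52.5 percent are shared with Ubxn6 on the opposite strand. Slbp, which binds the stem-loop of histone mRNA, was highest at 0.09 ± 0.15 and a mean level of 1208 (unadjusted p = 0.533, adjusted p = 0.944) in the authors' deposited table. It had the smallest SE of all members, with an interval of 87.2 to 130.2 percent of the control level. The activating factors themselves had point estimates near 0, with E2f1 at 0.12 ± 0.47 (mean level 84.7, unadjusted p = 0.792, adjusted p = 0.98) and E2f2 at -0.11 ± 0.33 (mean level 129, unadjusted p = 0.745, adjusted p = 0.971) in the authors' deposited table. Their intervals were wide, 57.4 to 206.8 percent of the control level for E2f1 and 59.4 to 145.0 percent for E2f2.

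Levels of subunits were compared within complexes, with Gins4, Rfc1, Pold2, Pold4, Pola2 and Prim2, which are no members, included. Mean levels, averaged over all libraries by the authors, were divided by the exonic length of each gene in GENCODE M21, which joins all isoforms and is therefore approximate. Per kb of exon, Mcm6 (526) and Mcm4 (327) stood above the other MCM ring subunits, which ran from 117 for Mcm2 to 154 for Mcm3, a 4.48-fold span over the ring. The loader subunits spanned 3.76-fold, from 65.8 for Rfc5 to 247 for the large subunit Rfc1. The GINS subunits spanned 19.8-fold, from 17.5 for Gins3 to 347 for Gins4, with Gins2, whose exons overlap another gene, at 89.1. The polymerase delta subunits spanned 3.42-fold. Other complexes were more even, with a 1.67-fold span over polymerase alpha and primase, 1.74-fold over CAF-1, and Rrm1 (108) and Rrm2 (106) 1.02-fold apart. Before division by length, Rrm1 and Rrm2 had mean levels of 1184 and 293, so their near equality rests on exonic lengths of 11012 and 2771 bases. The table gives no spread over libraries for these levels, so no order among near neighbours was tested.

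**Figure D3:**
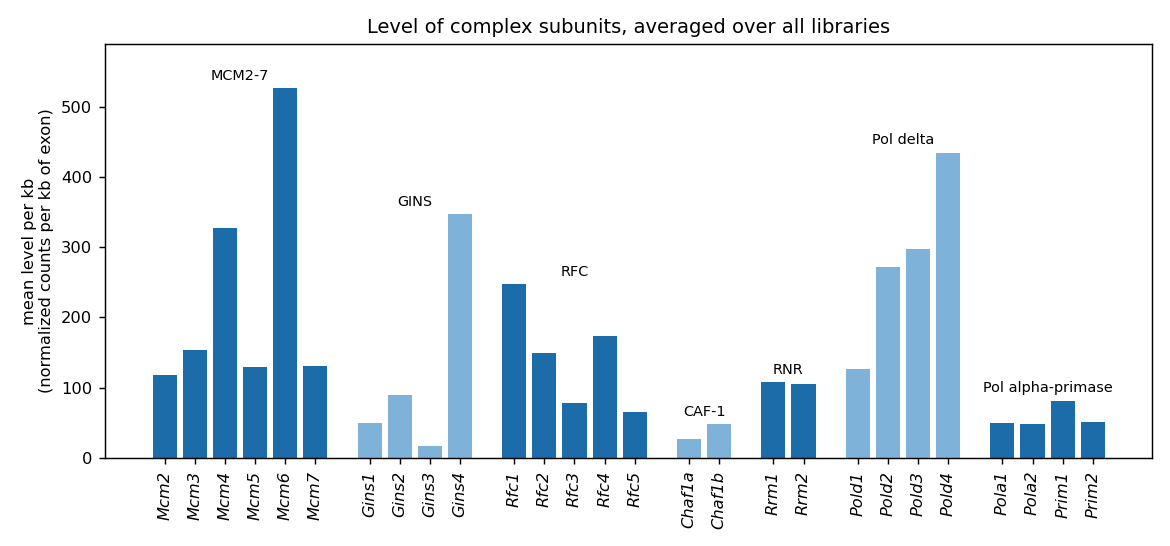
Mean level per kb of exon, in normalized counts averaged over all libraries and both genotypes (vertical axis, from 0), for subunits of 7 complexes (RNR is ribonucleotide reductase), members and others. Mcm6 at 526 and Mcm4 at 327 stand above the other MCM ring subunits, while Rrm1 and Rrm2 are nearly equal after division by length.

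The more negative members tended to be the less precise. Across the 36 members, log2 fold change and SE had a Spearman rho of -0.61, a description over genes that share the same 6 libraries. The rho of log2 fold change was 0.42 with mean level, and -0.47 with the SE set against genes of like level as described next. The 18 members with an SE above the members' median had a median log2 fold change of -0.30, with 17 negative, and the other 18 had -0.06, with 10 negative. To take level into account, each SE was set beside the median SE of the listed genes in the same of 20 equal bins of mean level. It was above that median for 26 members, and over 1.5 times it for 6 (Mcm5, Mcm6, Pole, Rrm2, Uhrf1 and Hells), beside 6.26 percent of all listed genes. The SE of Rrm2 was 3.19 times and that of Uhrf1 3.43 times the median of its bin. These 2 lay in a band of 231 listed genes, 1.38 percent of all, whose SE was over 2.5 times the median of their bin, and the nearest listed gene outside the band stood at 2.2 times. The limit of 2.5 was set after the values were seen. In a DESeq2 fit the SE of a gene grows with the spread between libraries of 1 genotype. Whether single libraries set these SEs was not tested, since no values per library were used.

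**Figure D4:**
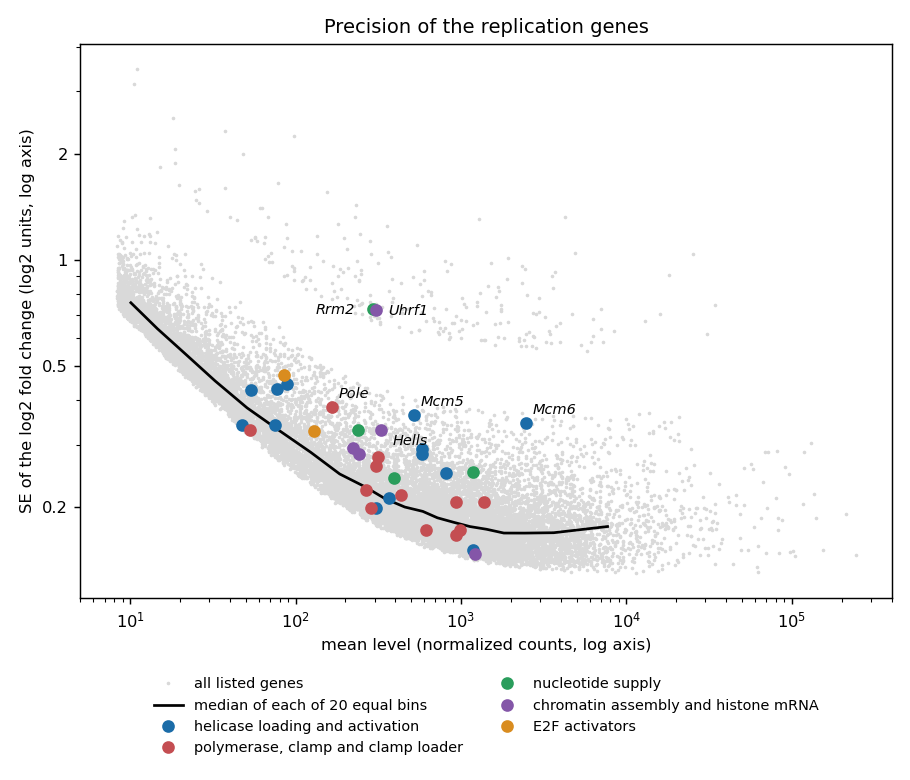
SE of the log2 fold change against mean level for all 16701 listed genes (grey) and the 36 members (coloured by role), both on log axes, with the median SE of 20 equal bins of mean level (black line). Rrm2 and Uhrf1 stand at 3.19 and 3.43 times the line, in a band apart from most genes, and Mcm6 at 2.04 times.

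Beyond the members, 51 further genes of nuclear DNA replication, from the origin recognition complex to replication protein A and the replication fork factors, had a median log2 fold change of -0.12, with 35 negative. Of them 0 passed at an adjusted p under 0.05, while the unadjusted p was under 0.05 for 3 higher and 2 lower genes. Of all 16701 listed genes, 874 were higher and 640 lower at that unadjusted p, or 9.07 percent together. The counts of these 51 genes thus lay near the share of the whole table. The smallest p-values were on the positive side, for the fork protein gene Donson (0.67 ± 0.22 SE, adjusted p = 0.145), the dNTP hydrolase gene Samhd1 (0.43 ± 0.15, adjusted p = 0.19) and the histone chaperone gene Nasp (0.61 ± 0.22, adjusted p = 0.227) in the authors' deposited table. The 20 replication checkpoint and fork repair genes had a median of -0.18, with 14 negative, 0 that passed and 3 lower at an unadjusted p under 0.05 (3.83 percent of all listed genes), Fancd2 (-0.72 ± 0.25), Rad51ap1 (-1.18 ± 0.48) and Rad1 (-0.43 ± 0.22) in the authors' deposited table. The authors' own call was Down for 1 of the 20, Rad51ap1.

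Genes listed for the step into S phase, some of which also act later, were split evenly in sign. Of 22 genes of further E2F factors, pocket proteins and G1/S cyclins with their kinases, 11 were negative and 11 positive. Their median was 0.01, with values from -1.08 to 0.95. There, 1 gene passed, where 1.08 percent of all listed genes did. It was the G1 kinase gene Cdk6, which rose by 0.95 ± 0.23 SE on the log2 scale (adjusted p = 0.00764) in the authors' deposited table. Ccna2, the cyclin of S phase and G2, stood at -1.01 ± 0.44 (unadjusted p = 0.0229, adjusted p = 0.426) and the repressor E2f8 at -0.87 ± 0.50 (unadjusted p = 0.0818) in the authors' deposited table. The 12 genes that copy mitochondrial DNA, a process outside the cell cycle, had a median of -0.02, with 6 negative and 0 at an adjusted or unadjusted p under 0.05.

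The G2/M genes stood farther from 0 than the members. All 24 were negative, from -1.33 to -0.50, with a median of -1.01, so the highest G2/M value lay below 31 of the members' 36. This list, like the members, was chosen with earlier results of these data known, so its signs are a description only. None passed at an adjusted p under 0.05, the smallest being that of the kinetochore gene Cenpf (-1.27 ± 0.39 SE, adjusted p = 0.0735) in the authors' deposited table, and 14 were lower at an unadjusted p under 0.05, beside 3.83 percent of all listed genes. The authors' own call in the deposited table was Down for 7 of the 24, beside 0 of the members. Of all listed genes, 2.79 percent were called Up or Down. These 7 G2/M genes had log2 fold changes of -1.33 to -1.04, while the lowest member stood at -0.82. Ccna2 at -1.01 and Cdk6 at 0.95 were Stable, as was Tpx2 at -1.25, where the unadjusted DESeq2 p was 0.0713. The rule of the call is not stated, so whether a limit of size kept members out was not tested. The call did not follow the DESeq2 adjusted p, as Aurkb was Down at 0.492 and Cdk6 Stable at 0.00764. The SE of the G2/M genes was over 1.5 times the median of their bin for 20 of 24, and over 2.5 times for 7. The difference between these groups was not tested, since both come from the same libraries and no values per library were used.

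**Figure D5:**
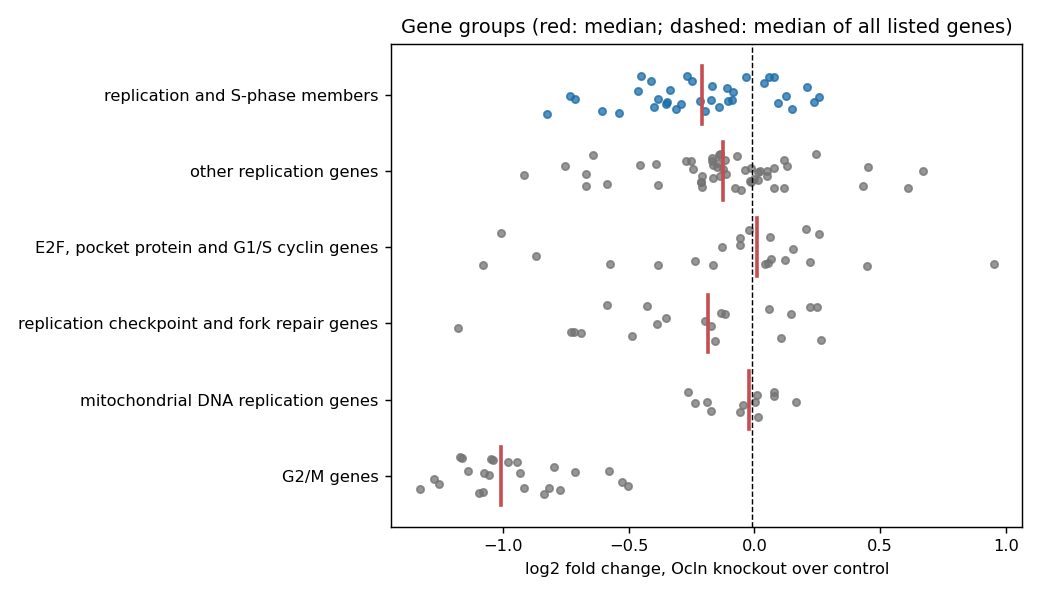
Log2 fold change, Ocln knockout over control (horizontal axis), of each gene (points, spread vertically for view) in the members and 5 further gene groups, with each group's median (red) and the median of all listed genes (dashed). The members' median is -0.21 and that of the G2/M genes -1.01, while the mitochondrial replication genes lie around 0.

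Facts of the samples bear on these values. None of the members lies on chromosome 13, which carries Ocln. The 8 luminal markers, among them Epcam and Krt8, were all listed, at mean levels of 7068 to 84084 normalized counts. Markers of other cells were far lower, at 52.4 to 665 for 8 basal, 33.8 to 387 for 6 fibroblast and 82.0 to 877 for 5 endothelial markers, with Fabp4 (445) as the only adipocyte marker of 4 listed. Myeloid markers were positive in 6 of 6 (median 0.73), the 4 of 6 B cell markers listed in 4 (median 1.56), and the 2 of 7 T and NK cell markers listed in 2 (median 0.79), while 5 of 5 red cell markers were negative (median -1.28), with 0 of these 4 lists' markers passing at an adjusted p under 0.05. Basal markers were negative in 6 of 8 (median -0.15), and 1 passed, Oxtr, which was lower (-1.55 ± 0.38 SE in the authors' deposited table). Fibroblast markers were positive in 5 of 6 (median 0.22), and the exception, Dcn, passed as lower (-1.36 ± 0.35 in the authors' deposited table). The part of these cells in the members' values was not tested, and levels per genotype were not analysed here.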

How the data were processed

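The data were 1 table of the comparison that the authors deposited, made with DESeq2 on the build mm10, per the submitters' processing notes, from 6 libraries. The aligner, counter, annotation, strand setting and formula were not given in the sources used here. Columns of the deposited file, per the file headers, are the mean level of each gene (a signal, in normalized counts over all libraries), log2 fold change with SE in log2 units, Wald score, p-value and adjusted p-value. The last column is the authors' call. The direction was taken from the table's name. The score equalled fold change over SE to within 2.58e-07, and the adjusted p-values differed from a Benjamini-Hochberg adjustment over all 16701 genes by at most 0.514 percent. The lowest mean level listed was 8.35, and the depth per library is unknown.

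No new test per gene was run: with no values per library, the planned description of the authors' fold changes stands in for a count model. Members and lists were chosen with earlier results of these data known. Full values are given for members at an unadjusted p under 0.05, the 2 of highest mean level and the highest and lowest value in each role, and for up to 3 genes of smallest p in each further list. Lengths and positions came from GENCODE M21, with lengths for 36 members and 16250 listed genes, and promoters from RefSeq (GRCm38.p6). Python 3.11.15, pandas 2.3.3 and scipy 1.17.1 were used, and the adjustment, inflation and length steps were tested on simulated data. Protein sequences were not used here.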

Additional observations from a re-analysis of the deposited data

How the results depend on the processing

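With 0 members past an adjusted p of 0.05 in the DESeq2 table, the count stayed 0 under every setting run. These were a threshold of 0.01, only genes at a mean level of 50 or more, and scores scaled down for an inflation factor of 1.18. Others were scores less their median in 20 bins of exonic length (all isoforms joined), a Benjamini-Yekutieli adjustment and the authors' own calls. A last setting, added after the data were seen, left out members sharing over 50 percent of exonic bases. The stricter threshold, the scaled scores, the Benjamini-Yekutieli adjustment and the omission of members could not have raised a count of 0. Whether the authors' own calls could have was not tested, as their rule is not stated. The count of members at an unadjusted DESeq2 p under 0.05 was 1. It became 0 at a threshold of 0.01, and 2 after the length step, which added Pole to Gins2. It was 0 of 33 without Gins2, Fen1 and Chaf1a, the members with such overlaps. The median log2 fold change of the members ran from -0.20 (mean level of 50 or more, 26 of 35 negative) to -0.25 (MCM genes left out, 21 of 29 negative), and a mean weighted by 1/SE squared was -0.10. No paired analysis was possible because the table holds no values per library, and for the same reason leaving out each replicate was not run. Depth per library is unknown, and the precision of each value is that of its SE.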
